A study of Arabidopsis thaliana with 32 samples.

Results

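The iron deficiency response of rosettes was measured in an Arabidopsis thaliana line in which the 35S promoter, active in most tissues, drives the fluorescent protein EYFP, and which served as the transgenic control of the study. The members are 4 libraries of 32 in all, taken by their labels as the whole-rosette libraries of this line, 2 from control plates and 2 from iron-deficient plates. The other libraries of the study came from roots and rosettes of the lines IMA1 OE, IMA3 OE and opt3-2 and from the roots of the EYFP line. Seedlings were kept for 10 days on full ES medium with 1.5% sucrose, 25 to a plate, under continuous light of 50 µmol m-2 s-1. They were then moved for 72 h to fresh full ES medium (control) or to ES medium that lacked iron and held ferrozine, a chelator of ferrous iron (Fe deficient). The ferrozine concentration is given as 100 µM in the treatment protocol and as 300 µM in the series design, and which was used could not be settled. Both groups carry the EYFP transgene, no untransformed plants were sampled, and the labels name neither the number of independent transformants nor whether the replicates came from separate plates. P-values therefore measure only the spread between replicate libraries. That spread was taken from all 8 rosette groups of the study, which include those of the other lines. The source field of the rosette libraries reads roots, while title and tissue read rosettes.

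Iron is needed for heme, iron-sulfur clusters and the thylakoid complexes, and a shoot with too little iron both signals its need to the root and spends less iron on dispensable proteins. Basic helix-loop-helix (bHLH) transcription factors of subgroup Ib and the IRON MAN (IMA) peptides drive the response, and the E3 ubiquitin ligase BRUTUS (BTS) restrains it. Ferritins store iron in plastids, and superoxide dismutases come in iron-dependent and copper-dependent forms that can take each other's place.

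Levels below are RPKM (reads scaled to transcript length and library size) as the authors deposited them, and read depth is unknown. Mesophyll markers (RBCS1A, LHCB1.1, LHCB2.1, CA1, RCA and GAPA) summed to between 24950 and 28361 RPKM in the rosette libraries and to between 147 and 240.4 RPKM in root libraries of the same line. Of 10 root markers, 6 were under 0.5 RPKM in all 4 rosette libraries, and the sum of the 10 was 108 to 146 RPKM, nearly all of it PYK10 at 105 to 143 RPKM. The tissue field therefore matched the markers. Of 30 markers of mesophyll, root, phloem, guard cells, epidermis and dividing cells, 23 were tested for the iron response and none passed, while 7 of the root markers were below the filter and not tested. The EYFP construct read 134, 142, 133 and 143 RPKM.

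The libraries of a group differed from each other, and this bears on every result. The median absolute difference between replicates was 0.20 on the log2(RPKM + 0.5) scale in the control group and also 0.20 in the deficient group, against 0.15 to 0.19 in the 6 other rosette groups. Genes that differed by over 1 numbered 807 in the control group and 569 in the deficient group, against 380 to 836 in the others. The test pooled the spread of all 8 groups, so its SE can be too small for the groups compared here. Control replicate 1 was nearer to the deficient state than control replicate 2 at several iron genes. FER1 read 56.3 RPKM in control replicate 1 and 287 RPKM in control replicate 2, and IMA3 read 47.9 and 9.62 RPKM. Of 74 genes that fell in roots of the same line and were tested in rosettes, 52 (70.3%) were lower in control replicate 1 than in control replicate 2, beside 49.5% of all genes. Of 335 genes that rose in roots, 161 (48.1%) were higher in control replicate 1, beside 49.9% of all genes. Deficient replicate 2 was above deficient replicate 1 in 69.3% of the genes that rose in roots, beside 49.4% of all genes.

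Genes of the circadian clock moved with the replicate number in both media. The evening-phased gene GI read 8.3 and 1.99 RPKM in the control libraries and 11.6 and 1.17 RPKM in the deficient libraries, in the order replicate 1 and replicate 2. PRR5 read 13.0 and 1.77 RPKM in control and 14.1 and 2.3 RPKM in deficient libraries. The morning-phased gene LHY ran the other way, at 16.9 and 82.0 RPKM in control and 36.3 and 73.4 RPKM in deficient libraries. Of 15 clock genes, 13 differed between the replicates in the same direction in both groups, beside 60.0% of all genes, and 5 did so by over 1 on the log2 scale in both. No clock gene passed the test between media. The part of these differences in the results below was not tested.

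**Figure D1:**
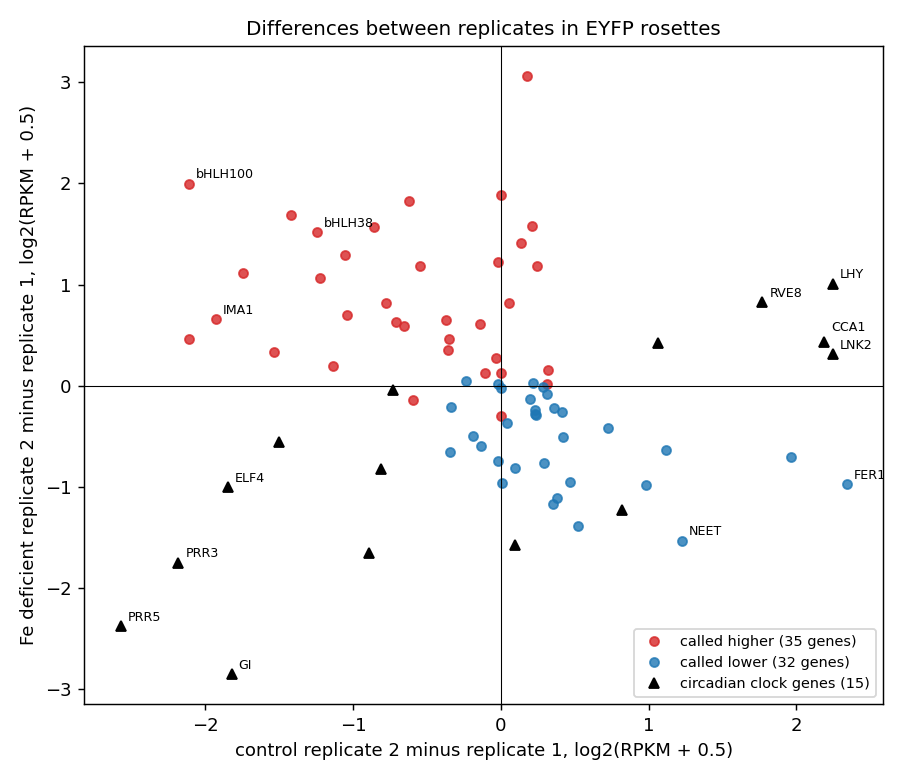
Difference between replicate 2 and replicate 1 in the control group (horizontal axis) and in the Fe deficient group (vertical axis), both on the log2(RPKM + 0.5) scale, for the 35 genes called higher, the 32 genes called lower and 15 circadian clock genes. Clock genes lie mostly in the lower left and upper right, while genes called higher lie mostly in the upper left and genes called lower mostly in the lower right.

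The test covered 19407 genes whose 4 libraries averaged 0.5 RPKM or more, and used limma variance moderation on the spread between replicates in all 8 rosette groups. The filter used the same 4 libraries that were compared. Genes that averaged under 0.5 RPKM in control therefore passed it only through the deficient group. Among them were some of the largest rises, those of bHLH38, bHLH39, AT1G47402 and AT1G47407. Others were IRT1, BTSL1, AT1G13608, AT1G47405, AT2G14230, AT2G14245, AT4G36700, AT1G12030 and AT2G30760. At a Benjamini-Hochberg adjusted p under 0.05, 67 genes were called (0.345% of those tested), of which 35 were higher (0.18%) and 32 lower (0.165%) under iron deficiency. The median log2 fold change of all genes tested was 0.00, and 498 genes had an unadjusted p under 0.05. The 2 groups did not overlap in any called gene, while they did not overlap in 19.6% of all genes tested. With limma on the 4 libraries alone no gene passed, and 333 genes had an unadjusted p under 0.05. The calls therefore depend on pooling the replicate spread of the 8 groups. Of the 30 called list members, 11 lost their call when no filter was applied and all 33607 AT loci were tested: CSD1, CCS, FER1, FER4, OPT3, YSL1, IRT1, APX1, sAPX, ACO3 and SIR, with adjusted p from 0.0553 to 0.174. Several genes named from outside the lists lost theirs as well, with adjusted p from 0.0617 to 0.174. They were AT4G36700, AT1G12030, AT5G05250, AT1G47405, AT3G02480, AT3G49160, AT2G36885, AT2G25625, AT5G59400, AT3G20510, AT5G45410 and AT3G61870. Of the 67 called genes, 13 had an unadjusted p of 0.05 or more in the authors' deposited table, among them IRT1 (0.202), FRO2 (0.167), BTSL1 (0.231), MIR398c (0.158) and GLB3 (0.139). The calls held with each library left out in turn for 16 genes: bHLH38, bHLH39, bHLH100, IMA1, IMA2, BTS, ZIF1, CDI, AT1G47402, AT1G47407 and AT2G44744, which were higher, and FSD1, NEET, SUFB, AT3G43670 and AT5G51010, which were lower. The count fell to 18 genes without control replicate 2 and to 26 genes without deficient replicate 2. It rose without deficient replicate 1. Leaving out a library also changes the test itself, since its group keeps 1 library and drops out of the spread. Whether a call ended through this or through a changed fold change was not tested. In whole rosettes, fewer cells of a type and less RNA per cell cannot be told apart.

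The largest 3 rises were those of bHLH38, bHLH100 and bHLH39. Promoters, taken as the 300 bases before the gene start in the RefSeq annotation of TAIR10.1, are shown for 6 genes that rose. Capitals mark the G-box CACGTG, a palindrome bound by bHLH proteins, in the first 4 sequences. BTS holds 3 copies, while bHLH38, bHLH100 and OPT3 hold 1 each. The genes shown were not picked by rule. bHLH39, bHLH101, PYE, FRO3 and ORG1, which also rose, hold no G-box in this window.
bHLH38 (chr3:21085246-21085545, minus strand): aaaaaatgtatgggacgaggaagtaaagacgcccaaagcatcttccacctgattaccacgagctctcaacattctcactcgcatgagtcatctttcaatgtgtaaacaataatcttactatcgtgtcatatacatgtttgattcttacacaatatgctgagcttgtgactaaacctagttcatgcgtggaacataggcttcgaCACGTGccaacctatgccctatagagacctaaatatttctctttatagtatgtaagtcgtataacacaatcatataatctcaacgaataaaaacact
bHLH100 (chr2:17199455-17199754, minus strand): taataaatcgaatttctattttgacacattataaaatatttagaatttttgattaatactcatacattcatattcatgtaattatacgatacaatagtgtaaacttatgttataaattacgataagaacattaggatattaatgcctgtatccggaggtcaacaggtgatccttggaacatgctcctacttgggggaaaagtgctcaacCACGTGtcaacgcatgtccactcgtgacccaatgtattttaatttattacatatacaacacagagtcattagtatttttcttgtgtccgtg
BTS (chr3:6273666-6273965, plus strand): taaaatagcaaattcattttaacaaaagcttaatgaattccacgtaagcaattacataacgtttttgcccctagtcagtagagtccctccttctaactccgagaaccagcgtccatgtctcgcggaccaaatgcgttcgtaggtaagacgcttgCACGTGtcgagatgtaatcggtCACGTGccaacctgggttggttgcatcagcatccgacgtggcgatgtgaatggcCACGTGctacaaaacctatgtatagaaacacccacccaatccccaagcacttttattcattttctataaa
OPT3 (chr4:9250344-9250643, minus strand): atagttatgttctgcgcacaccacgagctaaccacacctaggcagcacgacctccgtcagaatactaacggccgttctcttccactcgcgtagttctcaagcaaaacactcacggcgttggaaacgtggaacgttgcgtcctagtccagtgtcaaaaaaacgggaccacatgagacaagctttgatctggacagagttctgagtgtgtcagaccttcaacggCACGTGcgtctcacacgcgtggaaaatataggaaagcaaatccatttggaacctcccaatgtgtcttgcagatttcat
IMA1 and IMA2 hold no G-box in this window, and capitals in their sequences mark the wider E-box CANNTG. The windows of these neighbouring genes are alike, with 238 identical bases over 333 aligned positions (71.5%), and both hold CATGTG and CACTTG.
IMA1 (chr1:17385407-17385706, plus strand): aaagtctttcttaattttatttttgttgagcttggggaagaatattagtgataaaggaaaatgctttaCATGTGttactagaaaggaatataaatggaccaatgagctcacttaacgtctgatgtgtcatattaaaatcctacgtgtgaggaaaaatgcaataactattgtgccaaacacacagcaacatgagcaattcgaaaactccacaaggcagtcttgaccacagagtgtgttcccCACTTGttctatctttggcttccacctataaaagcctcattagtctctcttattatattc
IMA2 (chr1:17382698-17382997, plus strand): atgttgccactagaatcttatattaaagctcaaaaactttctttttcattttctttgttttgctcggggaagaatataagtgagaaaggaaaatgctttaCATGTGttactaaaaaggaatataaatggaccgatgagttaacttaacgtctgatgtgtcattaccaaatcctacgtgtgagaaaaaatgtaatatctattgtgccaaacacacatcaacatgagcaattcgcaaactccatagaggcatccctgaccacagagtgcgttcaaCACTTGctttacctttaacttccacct
The G-box, searched on both strands, was in 9 of 29 promoters of protein-coding genes called higher (31.0%) and in 6 of 31 of those called lower (19.4%), beside 8.03% of the 18569 promoters of tested genes and 7.09% of all 27443 promoters. The E-box CANNTG, which includes the G-box, was in 79.3% of the promoters of genes called higher and 64.5% of those called lower, beside 62.7% of tested genes. GTAC, the core of the copper response element, was in 31.0% and 35.5%, beside 40.3% of tested genes. A match describes letters in the window and is not a binding site.

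Of 19 tested regulators of iron deficiency, 9 were called higher and 0 lower, with a median log2 fold change of 1.79 beside 0.00 for all genes tested. Counts in this and the later lists stand beside 0.18% higher and 0.165% lower among all genes tested. The lists were chosen with earlier results of these data known. The 4 subgroup Ib bHLH genes were nearly silent on control plates. bHLH38 (AT3G56970) read 0.73 and 0.02 RPKM in the control libraries and 75.6 and 218 RPKM in the deficient libraries, a log2 fold change of 7.33 (SE 0.62, adjusted p = 0.000952). bHLH39 (AT3G56980), its tandem neighbour 1144 bases away on chromosome 3 with 72.8% identity over the gene span, read 0.89 and 0.02 against 45.9 and 149 RPKM (6.61, SE 0.65, adjusted p = 0.00169). Reads shared between such copies could not be told apart from these tables. bHLH100 (AT2G41240) read 2.44 and 0.18 against 101 and 405 RPKM (7.17, SE 0.66, adjusted p = 0.00114). bHLH101 (AT5G04150) read 1.51 and 0.1 against 38.8 and 84.2 RPKM (5.71, SE 0.66, adjusted p = 0.00407). In each of the 4 genes control replicate 2 was the lowest library and deficient replicate 2 the highest.

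The IMA genes encode small peptides that bind BTS and related ligases and so protect the bHLH factors that start the response. IMA1 (AT1G47400) read 8.59 and 1.89 RPKM in control and 142 and 224 RPKM in deficient libraries (log2 fold change 5.26, SE 0.53, adjusted p = 0.00179). IMA2 (AT1G47395) read 10.8 and 4.32 against 208 and 435 RPKM (5.35, SE 0.48, adjusted p = 0.000952). IMA1 and IMA2 lie 1876 bases apart, with 64.55% identity over the gene span. Whether reads are shared between them was not tested. IMA3 (AT2G30766) read 47.9 and 9.62 against 287 and 435 RPKM and did not pass the test (3.999, SE 0.78, adjusted p = 0.0900), although its groups did not overlap. Without control replicate 1 its adjusted p was 0.0356, and without control replicate 2 it was 0.806. The IMA3 locus overlaps AT2G30760 and CYP71A13 on the opposite strand, and whether counting used the strand is not given in the sources used here. AT2G30760, named after its values were seen, read 0.71 and 0.05 against 3.46 and 4.02 RPKM and was called higher (2.37, SE 0.39, adjusted p = 0.0309), a call that ended without control replicate 2 (0.316), deficient replicate 1 (0.124) or deficient replicate 2 (0.315). CYP71A13 read 0.36 and 1.12 against 0.08 and 2.75 RPKM, so its groups overlapped.

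Among further regulators, BTS, BTSL1 and PYE rose. BTS (AT3G18290) read 30.2 and 17.5 RPKM in control and 109 and 192 RPKM in deficient libraries (2.63, SE 0.27, adjusted p = 0.00179). BTSL1 (AT1G74770), a related ligase known from roots, was at a low level, 0.29 and 0.11 against 1.42 and 2.5 RPKM (1.79, SE 0.23, adjusted p = 0.00720). PYE (AT3G47640), a bHLH factor known to repress genes of iron transport in roots, read 9.81 and 6.32 against 32.1 and 29.0 RPKM (1.89, SE 0.23, adjusted p = 0.00562). FIT (AT2G28160), the root partner of the subgroup Ib factors, read 1.43 and 0.95 against 1.09 and 0.95 RPKM, with overlapping groups (-0.14, SE 0.20, adjusted p = 1). The bHLH genes ILR3, bHLH34, bHLH104 and bHLH115, whose products switch on the subgroup Ib genes, were between 0.04 and 0.12 and were not called. Nor were BTSL2, at 2.08 and 2.55 against 2.52 and 2.94 RPKM (0.20, SE 0.15, adjusted p = 1), or bHLH11, known as a repressor, at 1.88 and 1.84 against 0.66 and 0.71 RPKM (-0.99, SE 0.23, adjusted p = 0.219). The size of the BTSL1 fold change depended on the pseudocount, at 2.80 with 0.1 and 1.28 with 1, and the call held at both. PYE (adjusted p = 0.0674) and BTSL1 (0.111) lost their calls without control replicate 2. Without deficient replicate 2, bHLH101 (0.0550), PYE (0.0505) and BTSL1 (0.0649) did.

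**Figure D2:**
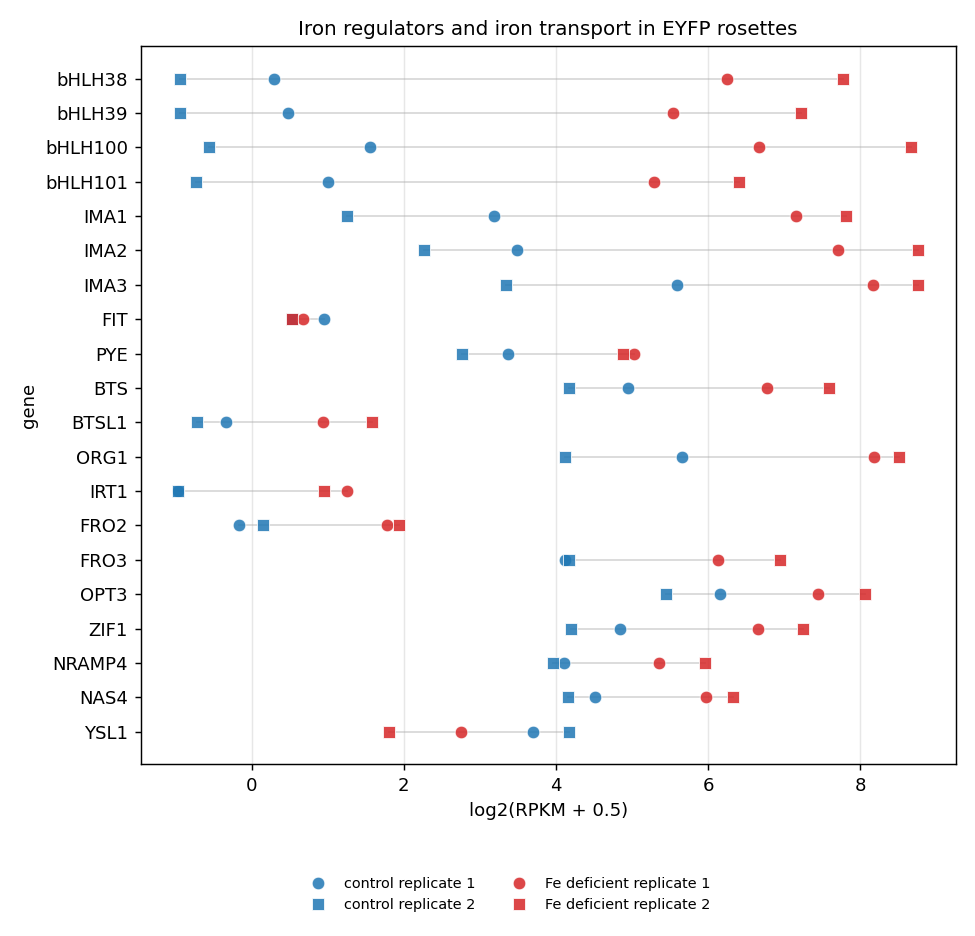
Level of 20 genes of iron regulation and iron transport in the 4 EYFP rosette libraries, as log2(RPKM + 0.5) on the horizontal axis, with blue for control and red for Fe deficient, circles for replicate 1 and squares for replicate 2. Except for FIT the groups are apart in every gene shown, and only YSL1 is lower under deficiency.

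Several genes with no assigned role rose with the regulators. AT1G47402 and AT1G47407, which carry locus numbers next to IMA1 but have no RefSeq entry, read 0.48 and 0.04 against 26.1 and 78.6 RPKM (5.98, SE 0.52, adjusted p = 0.000952) and 0.48 and 0.17 against 23.7 and 54.3 RPKM (5.49, SE 0.35, adjusted p = 0.000191). AT1G47405, annotated as a pseudogene 3193 bases beyond IMA1, read 0.01 in both control libraries and 1.75 and 7.81 RPKM in the deficient libraries (3.08, SE 0.44, adjusted p = 0.0143). AT2G44744, also without an entry, read 0.89 and 0.17 against 33.4 and 82.4 RPKM (5.78, SE 0.52, adjusted p = 0.000952). In all 4 genes the groups were far apart and deficient replicate 2 was the highest library.

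A second cluster lay on chromosome 2. AT2G14247, an uncharacterized protein-coding gene at chr2:6034282-6035375, read 7.12 and 3.2 RPKM in control and 219 and 355 RPKM in deficient libraries (5.72, SE 0.67, adjusted p = 0.00434). The neighbouring pseudogenes AT2G14230 (3.18, SE 0.42, adjusted p = 0.00825) and AT2G14245 (2.94, SE 0.37, adjusted p = 0.00690) rose to at most 8.11 and 6.19 RPKM from at most 0.09 RPKM. Aligned end to end with AT2G14247, whose gene span differs in length, they had 41.5% and 48.7% identity. Whether reads are shared between these genes was not tested. Without control replicate 2 the adjusted p of AT2G14247 was 0.0674, and without deficient replicate 2 it was 0.0649. The pseudogenes were near 0 RPKM in control, so the pseudocount set much of their fold change: with 0.1 and 1 it was 4.96 and 2.403 for AT2G14230, 4.78 and 2.17 for AT2G14245, and 5.12 and 2.29 for AT1G47405, all called. For AT2G14230 the adjusted p was 0.0734 and 0.0773 without control replicate 1 and 2, and for AT2G14245 it was 0.0555 and 0.0714, as it was 0.104 and 0.139 for AT1G47405.

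The remaining large rises outside the lists had annotated products. ORG1 (AT5G53450, OBP3-responsive gene) read 49.9 and 16.9 against 289 and 365 RPKM (3.46, SE 0.41, adjusted p = 0.00455). AT4G36700, of the cupin superfamily, read 0.04 and 0.11 against 3.38 and 31.96 RPKM (4.29, SE 0.70, adjusted p = 0.0292), and its deficient libraries differed most among the called genes. AT5G05250, an uncharacterized protein gene, read 25.4 and 5.5 against 117 and 162 RPKM (3.47, SE 0.58, adjusted p = 0.0309). AT1G12030, of the DUF506 family, rose to 4.68 and 17.9 RPKM from 0.56 and 0.19 RPKM (3.51, SE 0.49, adjusted p = 0.0125). AT3G02480, of the late embryogenesis abundant family, read 0.69 and 0.91 against 6.12 and 14.6 RPKM (2.95, SE 0.47, adjusted p = 0.0265). Control replicate 1 was above control replicate 2 in ORG1, AT5G05250 and AT1G12030, and below it in AT4G36700 and AT3G02480. With a pseudocount of 1 AT4G36700 was not called (3.48, adjusted p = 0.0727), and with 0.1 its fold change was 5.95 (adjusted p = 0.00814). Without control replicate 2 the adjusted p was 0.237 for AT4G36700, 0.145 for AT5G05250, 0.158 for AT1G12030 and 0.178 for AT3G02480. Without deficient replicate 2 it was 0.0649 for ORG1, 0.338 for AT5G05250 and 0.278 for AT3G02480, while without control replicate 1 it was 0.223 for AT4G36700 and 0.209 for AT3G02480. Without deficient replicate 1 it was 0.104 for AT5G05250.

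Among 21 tested genes that move or chelate iron inside the plant, 5 were called higher and 1 lower, with a median log2 fold change of 0.00. OPT3 (AT4G16370), which loads iron into the phloem and informs the root of shoot iron status, read 71.0 and 43.3 RPKM in control and 173 and 268 RPKM in deficient libraries (1.95, SE 0.29, adjusted p = 0.0170). ZIF1 (AT5G13740), which moves nicotianamine, a metal chelator, into the vacuole, read 28.3 and 17.8 against 100.0 and 151 RPKM (2.43, SE 0.23, adjusted p = 0.00135). FRO3 (AT1G23020), a ferric reductase of mitochondria, read 16.9 and 17.58 against 69.6 and 123 RPKM (2.39, SE 0.31, adjusted p = 0.00719). In these genes both deficient libraries were above both control libraries.

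NAS4 (AT1G56430), a nicotianamine synthase, read 22.4 and 17.3 against 62.1 and 79.6 RPKM (1.81, SE 0.21, adjusted p = 0.00434). NRAMP4 (AT5G67330), which releases iron from the vacuole, read 16.7 and 15.1 against 40.5 and 61.9 RPKM (1.63, SE 0.20, adjusted p = 0.00562). YSL1 (AT4G24120), a transporter of metal-nicotianamine complexes, was the member called lower, at 12.5 and 17.5 against 6.25 and 2.99 RPKM (-1.66, SE 0.28, adjusted p = 0.0309). Close relatives were not called. NRAMP3 was at 0.24, NAS1 at 0.06, YSL2 at -1.45 (adjusted p = 0.0724) and YSL3 at -0.80, while NAS3 read 8.17 and 7.74 against 2.87 and 0.38 RPKM (-2.30, SE 0.55, adjusted p = 0.294) and NAS2, at most 0.42 RPKM, was below the filter. Without deficient replicate 1, NAS3 passed (-3.26, adjusted p = 0.0153).

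Only ZIF1 among these 6 kept its call in every left-out fit. Without control replicate 2, calls ended for OPT3 (adjusted p = 0.188), FRO3 (0.0773), NAS4 (0.0674), NRAMP4 (0.0773) and YSL1 (0.406). Without deficient replicate 2 they ended for OPT3 (0.219), FRO3 (0.0746), NAS4 (0.0642) and YSL1 (0.224), and without control replicate 1 for FRO3 (0.0558) and YSL1 (0.0733).

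Of 13 genes of iron uptake and coumarin secretion, which act at the root surface, 8 passed the filter in rosettes, and 2 were called higher with a median log2 fold change of 0.25. IRT1 (AT4G19690), the ferrous iron importer, was listed at 0.01 RPKM in both control libraries and at 1.88 and 1.43 RPKM in deficient libraries (2.07, SE 0.33, adjusted p = 0.0279). FRO2 (AT1G01580), the ferric reductase of the root surface, read 0.39 and 0.61 against 2.94 and 3.33 RPKM (1.87, SE 0.26, adjusted p = 0.0129). The groups were apart in both genes but levels stayed low. IRT1 passed the filter only through its deficient libraries. The IRT1 fold change was 3.98 with a pseudocount of 0.1 and 1.39 with 1, and that of FRO2 was 2.45 and 1.47, with the calls held. IRT1 lost its call with any library left out (adjusted p 0.156 to 0.240), and FRO2 kept it only without deficient replicate 1, with 0.0773 to 0.156 otherwise. The root hair markers COBL9, EXPA7, EXPA18, PRP3 and LRX1 were at most 0.26 RPKM in all 4 libraries.

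Of 8 superoxide dismutases and their copper chaperone, 3 were called higher and 1 lower, beside 0.18% and 0.165% of all genes tested. The median log2 fold change of the 8 was -0.01. FSD1 (AT4G25100), the plastid iron superoxide dismutase, read 404 and 667 RPKM in control and 16.8 and 12.5 RPKM in deficient libraries (-5.11, SE 0.53, adjusted p = 0.00191), the largest fall among the called genes. CSD2 (AT2G28190), the plastid copper/zinc enzyme, read 171 and 212 against 680.4 and 689.8 RPKM (1.85, SE 0.24, adjusted p = 0.00762). CSD1 (AT1G08830), the cytosolic copper/zinc enzyme, read 127 and 124 against 317 and 384 RPKM (1.47, SE 0.24, adjusted p = 0.0284). CCS (AT1G12520), the chaperone that gives both their copper, read 38.2 and 35.4 against 125 and 136 RPKM (1.82, SE 0.25, adjusted p = 0.0106). In each of these genes the groups were apart by more than the gap between replicates. The other members were not called. The iron enzymes FSD2 (0.01) and FSD3 (-0.13) and the peroxisomal copper/zinc enzyme CSD3 (-0.03) had overlapping groups. MSD1, the mitochondrial manganese enzyme, read 144 and 142 against 134 and 138 RPKM (-0.07, SE 0.08, adjusted p = 1), with groups that did not overlap.

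CSD1, CSD2 and CCS are known targets of miR398, which directs cleavage of their transcripts and accumulates when copper is short. The MIR398c locus (AT5G14565, chr5:4694694-4694808) read 4.45 and 3.7 RPKM in control and 0.9 and 0.94 RPKM in deficient libraries (-1.68, SE 0.24, adjusted p = 0.0129). Both deficient libraries were below both controls. These values come from polyadenylated RNA and stand for the primary transcript, not the mature microRNA. Its mature sequence and the most complementary 21-base window in each target transcript are shown, with the seed (bases 2 to 8) in capitals in the microRNA and paired bases in capitals in the windows.
ath-miR398c-3p (chr5:4694778-4694798, plus strand): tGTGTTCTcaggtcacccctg
CSD1 (5′ UTR, across a splice junction): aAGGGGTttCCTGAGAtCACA
CSD2 (coding sequence): tgcGGGTGACCTGgGAAacat
CCS (coding sequence): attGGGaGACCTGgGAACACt
CSD1 paired at 17 of 21 positions, CCS at 15 with 1 further G:U pair, and CSD2 at 13 with 3 further G:U pairs. Among the longest transcripts of 27440 protein-coding genes, 4 had a window with at least 17 paired positions, 273 with at least 15 and 9203 with at least 13, so the CSD2 count alone does not set it apart. MIR398c lost its call with any library left out (adjusted p 0.0682 to 0.128), as did CSD1 (0.0690 to 0.317). CSD2 kept its call only without deficient replicate 1 (0.0575 to 0.0907 otherwise), as did CCS (0.0604 to 0.133 otherwise).

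Genes of copper uptake and delivery did not follow. None of 13 tested passed, with a median of -0.01 and a range from -0.87 to 0.15. COPT2, a copper importer, was the lowest at 5.68 and 3.67 against 2.45 and 2.12 RPKM (-0.87, SE 0.43, adjusted p = 1), and CCH, a copper chaperone, read 231 and 237 against 121 and 166 RPKM (-0.72, SE 0.16, adjusted p = 0.219). Outside the lists, a gene for another copper enzyme fell. AT3G43670, of the copper amine oxidase family, read 12.8 and 11.2 against 1.61 and 0.99 RPKM (-2.82, SE 0.24, adjusted p = 0.000952), with little spread within groups. None of 7 laccase and blue copper protein genes passed.

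The ferritin genes FER1 and FER4 fell. Of 8 iron storage genes tested, these 2 were called lower and 0 higher, with a median of -1.14. FER1 (AT5G01600), the main leaf ferritin gene, read 56.3 and 287 RPKM in control and 9.34 and 4.5 RPKM in deficient libraries (-4.19, SE 0.62, adjusted p = 0.0170). FER4 (AT2G40300) read 46.4 and 92.5 against 15.6 and 7.66 RPKM (-2.53, SE 0.36, adjusted p = 0.0129). Control replicate 1 was the lower control in both, yet above both deficient libraries. Without control replicate 2 the adjusted p was 0.0655 for FER1 and 0.133 for FER4, and without deficient replicate 2 it was 0.228 and 0.133. FER3 read 70.2 and 86.8 against 48.2 and 31.97 RPKM (-0.98, SE 0.31, adjusted p = 0.984), FER2, a seed ferritin, was under 1 RPKM throughout, and VTL1 (-1.48, adjusted p = 0.171) and VTL2 (-1.30, adjusted p = 0.161), which resemble vacuolar iron importers, were not called.

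Iron-sulfur proteins changed at single genes. Of 13 genes of plastid cluster assembly and NEET, 2 were called lower, and the median was -0.08. NEET (AT5G51720), an iron-sulfur protein that can pass its cluster on, read 98.6 and 231 RPKM in control and 10.2 and 3.19 RPKM in deficient libraries (-4.59, SE 0.49, adjusted p = 0.00229). SUFB (AT4G04770), the scaffold subunit on which plastid clusters are built, read 96.0 and 118 against 33.2 and 19.4 RPKM (-2.05, SE 0.22, adjusted p = 0.00229). Its partners in the scaffold complex were not called and had overlapping groups, SUFC at -0.04 (95% interval -0.28 to 0.21) and SUFD at -0.12 (95% interval -0.45 to 0.20), and the carrier SUFA was at -0.08 (95% interval -0.25 to 0.09). None of 12 genes of mitochondrial and cytosolic assembly passed, with a range from -0.13 to 0.14.

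Among proteins that carry iron, ENH1 (AT5G17170), a rubredoxin-like protein of the thylakoid, read 202 and 202 RPKM in control and 44.0 and 22.4 RPKM in deficient libraries (-2.67, SE 0.32, adjusted p = 0.00495). AT5G51010, also rubredoxin-like, read 108 and 144 against 48.0 and 40.1 RPKM (-1.49, SE 0.15, adjusted p = 0.00191). Both had groups well apart, and the 9 other ferredoxins, rubredoxins and partners on the list that holds ENH1 were not called. Of the 10 genes tested on that list, 5 had log2 fold changes above 0, and the median was -0.01. FD2, a ferredoxin on it named after its values were seen, was not called here. The authors' deposited table lists FD2 at -1.09 with a Z-test p of 0. Of 12 client enzymes of iron-sulfur clusters, 2 were lower: ACO3 (AT2G05710), an aconitase, at 90.7 and 71.4 against 42.5 and 26.8 RPKM (-1.24, SE 0.21, adjusted p = 0.0403), and SIR (AT5G04590), the sulfite reductase, at 157 and 195 against 99.6 and 94.2 RPKM (-0.85, SE 0.14, adjusted p = 0.0292). The median of these 12 genes was -0.20.

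Of 10 ascorbate peroxidases and catalases, which are heme enzymes, 2 were lower, with a median log2 fold change of -0.13. APX1 (AT1G07890), the cytosolic peroxidase, read 320 and 315 RPKM in control and 137 and 81.2 RPKM in deficient libraries (-1.59, SE 0.27, adjusted p = 0.0403). sAPX (AT4G08390), the stromal form, read 64.3 and 92.6 against 22.3 and 8.22 RPKM (-2.46, SE 0.39, adjusted p = 0.0265). GLB3 (AT4G32690), a hemoglobin gene, read 10.4 and 10.7 against 5.43 and 4.09 RPKM (-1.08, SE 0.14, adjusted p = 0.00706). In all 3 both deficient libraries were below both controls. CAT3, a catalase named after its values were seen, was not called here. The authors' deposited table lists CAT3 at -1.25 with a Z-test p of 0. Without control replicate 2, calls ended for ENH1 (adjusted p = 0.0674), ACO3 (0.137), SIR (0.337), APX1 (0.326), sAPX (0.301) and GLB3 (0.0859). Without deficient replicate 2 they ended for ACO3 (0.348), SIR (0.297), APX1 (0.423), sAPX (0.124) and GLB3 (0.0662), without control replicate 1 for ACO3 (0.412), APX1 (0.284) and sAPX (0.0733), and without deficient replicate 1 for SIR (0.104).

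**Figure D3:**
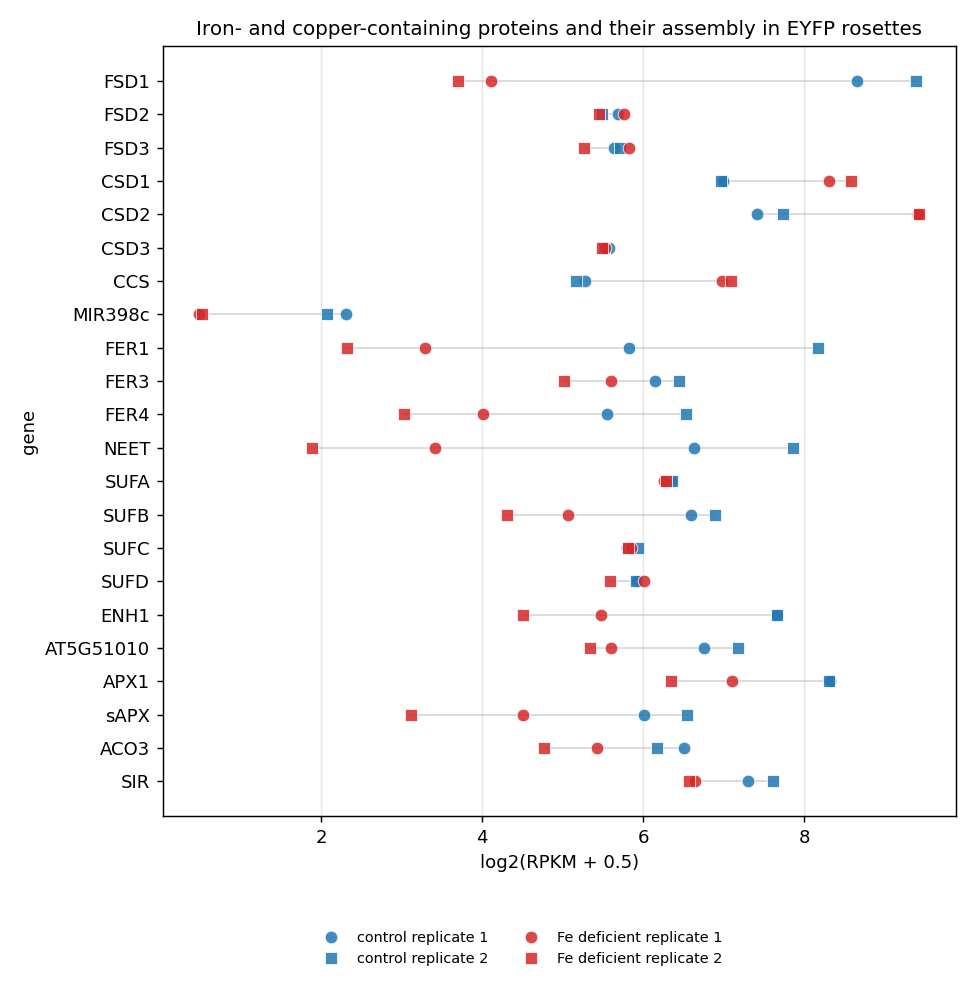
Level of 22 genes for iron and copper proteins, MIR398c and iron-sulfur assembly in the 4 EYFP rosette libraries, as log2(RPKM + 0.5) on the horizontal axis, with blue for control and red for Fe deficient, circles for replicate 1 and squares for replicate 2. FSD1, FER1 and NEET are far lower in both deficient libraries, CSD1, CSD2 and CCS are higher, and FSD2, FSD3, SUFC and SUFD lie close together.

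Further genes outside the lists fell. AT3G49160, of the pyruvate kinase family, read 3.3 and 14.2 against 0.58 and 0.16 RPKM (-3.14, SE 0.50, adjusted p = 0.0265). AT2G36885, whose RefSeq product is a translation initiation factor, read 19.1 and 42.1 against 5.72 and 3.49 RPKM (-2.54, SE 0.38, adjusted p = 0.0170). AT1G68650, of the uncharacterized family UPF0016, read 5.9 and 7.83 against 1.43 and 0.39 RPKM (-2.48, SE 0.33, adjusted p = 0.00825). In AT3G49160 and AT2G36885 the control libraries lay far apart, with replicate 2 the higher. AT2G25625 (-1.95), AT5G59400, of the PGR5-like family (-1.79), AT3G20510, of the transmembrane 14C family (-1.27), AT5G45410 (-1.22) and AT3G61870 (-1.15) fell with adjusted p from 0.0170 to 0.0437 and with groups apart. All of these lost their call in 1 or more of the left-out fits. The highest adjusted p was 0.301 for AT3G49160, 0.227 for AT2G36885, 0.317 for AT3G20510 and 0.292 for AT2G25625, each without deficient replicate 2. It was 0.130 for AT1G68650, 0.370 for AT5G59400, 0.406 for AT5G45410 and 0.179 for AT3G61870, each without control replicate 2.

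The remaining called genes outside the lists, named after their values were seen, had smaller changes. CGLD27, of the DUF1230 family, read 78.0 and 77.1 RPKM in control and 173 and 404 RPKM in deficient libraries (1.76, SE 0.29, adjusted p = 0.0309), and AT1G13608, a defensin-like gene, rose from 0.06 RPKM in both control libraries to 0.99 and 1.12 RPKM (1.47, SE 0.24, adjusted p = 0.0277). The falls ran from -0.998 for AT4G36050 to -0.41 for SDRB, a short-chain dehydrogenase, which read 80.4 and 79.3 against 59.5 and 60.2 RPKM. Between them lay AT3G62260 (-0.99), AT2G39270 (-0.94), the ethylene response factor RAP2.12 (-0.80), the profilin PRF3 (-0.68), the pentose phosphate enzyme RPE (-0.66) and AT3G47070 (-0.63). Each of these 10 genes lost its call in 1 or more of the left-out fits, with a highest adjusted p between 0.0597 and 0.396.

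**Figure D4:**
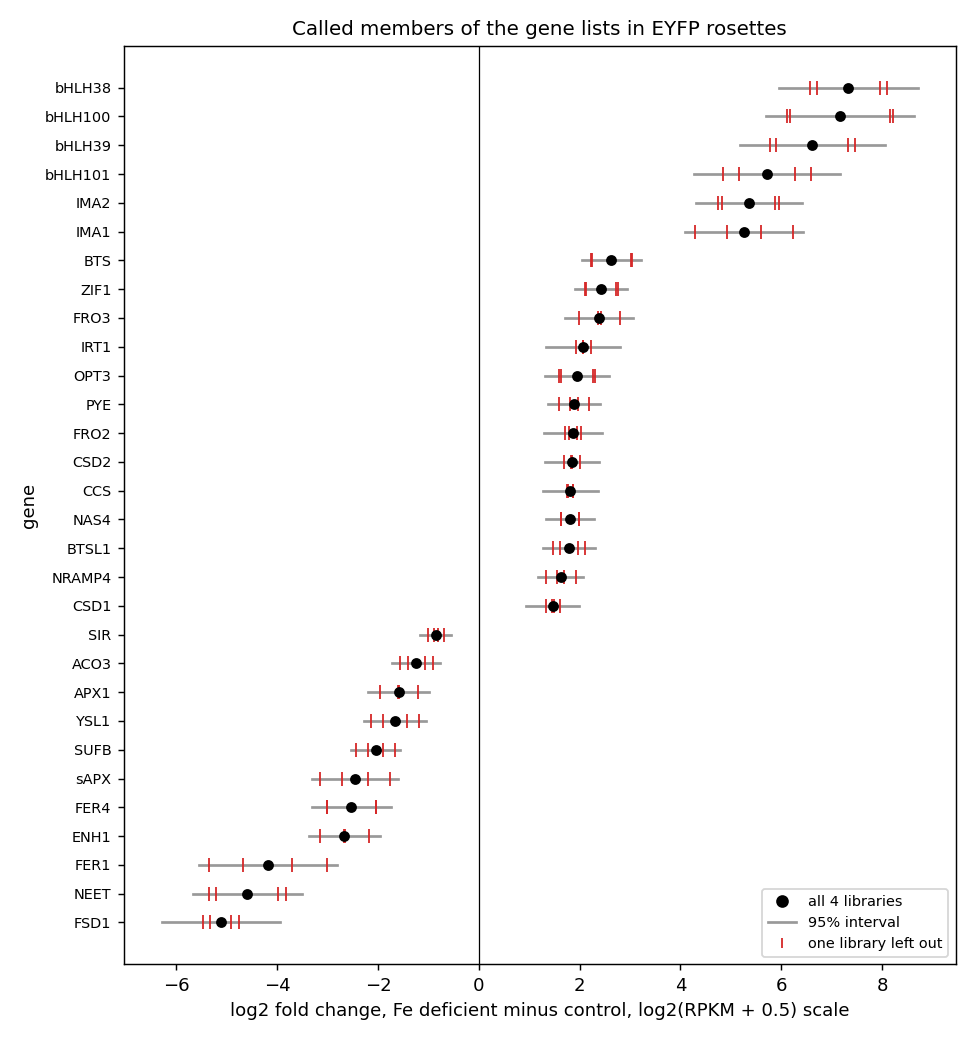
Log2 fold change (Fe deficient minus control, on the log2(RPKM + 0.5) scale) of the 30 called genes that belong to a list, with the 95% interval as a grey line and the fold changes with 1 library left out as red ticks. The order runs from bHLH38 at 7.33 to FSD1 at -5.11, and no tick crosses 0.

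The lists of other processes held no called gene. None of 28 tested genes of chlorophyll and heme synthesis was called, with a median of -0.02. HEMA1, named like NYC1 after its values were seen, which makes the first committed step of tetrapyrrole synthesis, read 146 and 346 RPKM in control and 83.4 and 41.0 RPKM in deficient libraries (-1.93, SE 0.43, adjusted p = 0.185), with groups apart but a wide control group. Among 41 nuclear photosynthesis genes the median was -0.02 and 32 were lower in control replicate 1 than in control replicate 2. LHCB1.1 read 1235 and 5232 against 4265 and 2953 RPKM. NYC1, a chlorophyll b reductase and one of 9 senescence genes tested, read 116 and 62.9 against 27.6 and 9.0 RPKM (-2.40, SE 0.58, adjusted p = 0.318). In the authors' deposited table the Z-test p is listed as 0 for HEMA1 and as 7e-12 for NYC1. No member was called among 16 genes of salicylate and pathogen response, 14 of jasmonate, 12 of zinc transport, 13 of flavonoid synthesis (median -0.42), 6 of heat shock (median -0.51), 8 of oxidative stress and 4 metallothioneins.

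More genes were called in roots of the same line. There 530 of 20507 tested genes were called (2.58%), 440 higher (2.15%) and 90 lower (0.439%). The median SE of the fold change was 0.174 in rosettes and 0.116 in roots, so the counts do not compare the size of the responses. Of 30 genes called higher in rosettes and tested in roots, 24 were higher in roots, and of 31 called lower, 11 were lower in roots. The subgroup Ib bHLH genes, IMA1, IMA2, BTS, PYE, OPT3, ZIF1, FRO3 and FSD1 were among those called in the same direction in both tissues. A single gene was called in opposite directions: AT1G80360, a pyridoxal phosphate-dependent transferase named after its values were seen, read 30.5 and 35.8 against 21.9 and 18.4 RPKM in rosettes (-0.71, SE 0.11, adjusted p = 0.0189) and rose in roots (1.03, SE 0.10, adjusted p = 8.18e-05), and the responses differed (-1.74, adjusted p = 8.44e-07). Its rosette call ended without control replicate 2 (adjusted p = 0.234) or deficient replicate 2 (0.219), while the difference passed with each library left out.

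The difference between the rosette and the root response was tested in 18240 genes, and 97 passed (0.532%). Rosettes were above roots in 6 genes (0.0329%): AT2G14247, BTS, RSH2, CSD2, CCS and CDI. AT2G14247 rose by 5.72 in rosettes and was at 1.47 in roots, a difference of 4.25 (SE 0.88, adjusted p = 0.0299). BTS rose by 2.63 and 1.02 (difference 1.60, SE 0.34, adjusted p = 0.0316). CSD2 rose by 1.85 and 0.40 (1.45, SE 0.26, adjusted p = 0.00926), and CCS by 1.82 and 0.54 (1.28, SE 0.27, adjusted p = 0.0320). CDI, a gene of the nucleotide-diphospho-sugar transferase superfamily, read 51.7 and 40.4 against 111 and 153 RPKM in rosettes (1.50, adjusted p = 0.00239) and was at 0.31 in roots (difference 1.19, SE 0.19, adjusted p = 0.00206). RSH2, a RelA/SpoT homolog, was not called in rosettes (1.46, adjusted p = 0.0667) and was at -0.03 in roots (1.49, adjusted p = 0.0232).

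Rosettes were below roots in 91 genes (0.499%). Of these 76 had risen in roots and were not called in rosettes, 9 had fallen in rosettes, and 2 genes, IRT1 and FRO2, had risen in both. FRO2 rose by 1.87 in rosettes and 5.63 in roots (difference -3.76, SE 0.34, adjusted p = 2.67e-06), and IRT1 by 2.07 and 5.64 (-3.57, SE 0.42, adjusted p = 5.94e-05). With a pseudocount of 0.1 the difference no longer passed for IRT1 (-1.69, adjusted p = 0.755), AT2G14247 (0.148), NEET (0.0934) and ENH1 (0.0876). With no filter it no longer passed for AT2G14247, BTS, CCS, FSD1, SUFB and ENH1, at adjusted p from 0.0547 to 0.0674. FIT (-1.84), NAS1 (-2.05), the zinc transporter MTP3 (-4.03), the copper importer COPT2 (-4.61), GSTL1 (-4.71), CYP71B5 (-5.39) and UGT72E1 (-3.24) had risen in roots alone by the calls and differed between the tissues. On the falling side, NEET fell by 4.59 in rosettes and was at -0.69 in roots (difference -3.91, adjusted p = 0.0139), and FSD1 fell by 5.11 and 1.97 (-3.15, adjusted p = 0.0345).

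ENH1 was at -0.16 in roots (difference -2.50, adjusted p = 0.0340), AT3G43670 at -0.89 (-1.92, adjusted p = 0.000494), SUFB at -0.73 (-1.32, adjusted p = 0.0335), AT5G51010 at -0.21 (-1.29, adjusted p = 0.0139) and AT5G45410 at -0.12 (-1.10, adjusted p = 0.0309). Control levels in roots were low for some of these genes, 2.52 RPKM for NEET and 4.27 RPKM for ENH1 as means of 2 libraries. The ferritins FER1 and FER4 did not differ by this test, with differences of -2.52 (SE 0.71, adjusted p = 0.225) and -1.40 (SE 0.42, adjusted p = 0.300). Of the 23 differences named here, 11 passed with each of 8 libraries left out in turn. The others, which were AT2G14247, BTS, CCS, CSD2, RSH2, NEET, FSD1, ENH1, SUFB, AT5G51010, AT5G45410 and NAS1, did not pass in every such fit. Leaving out a library changes the test itself, so a call can end with or without a change in size. The ENH1 difference was -2.50 both with all libraries and without rosette control replicate 1. Without rosette deficient replicate 2 it was -2.02. In that fit NEET moved from -3.91 to -3.14, SUFB from -1.32 to -0.94 and AT5G45410 from -1.10 to -0.69. CCS moved less, from 1.28 to 1.22.

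**Figure D5:**
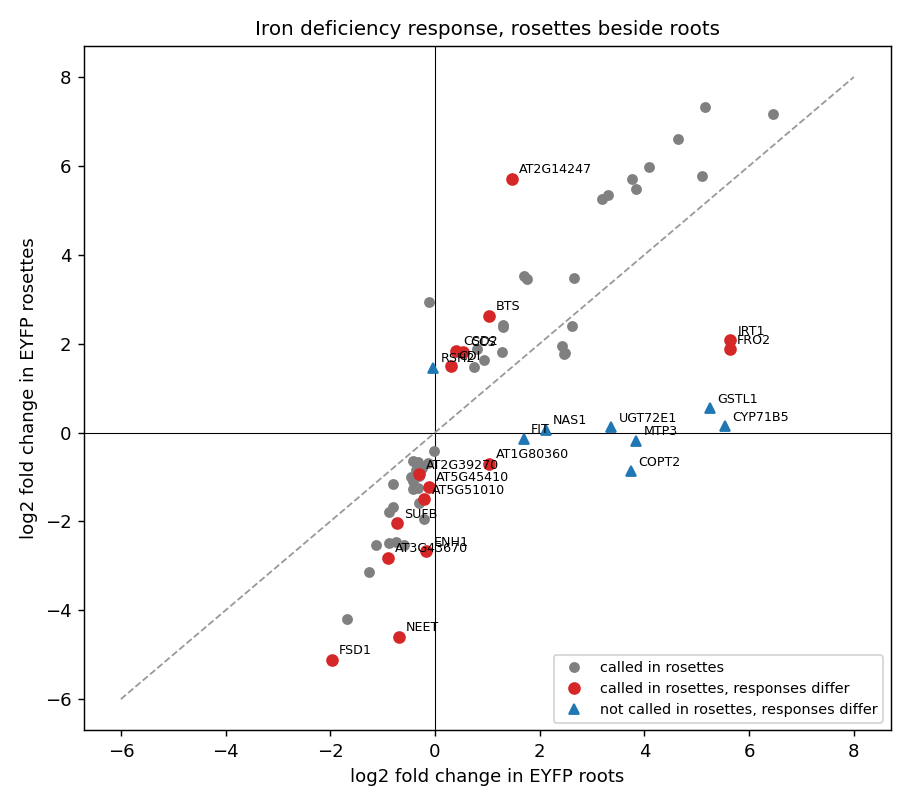
Log2 fold change under iron deficiency in EYFP roots (horizontal axis) and EYFP rosettes (vertical axis) for the called rosette genes that were tested in roots, in red where the responses differed and grey otherwise, and for 8 genes not called in rosettes whose responses differed (blue triangles). The dashed line marks equal fold changes, and AT2G14247, BTS, CSD2 and CCS lie above it, while IRT1, FRO2, NEET and FSD1 lie below it.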

How the data were processed

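RNA sequencing of polyadenylated RNA (TruSeq stranded mRNA libraries, per the labels' protocols) covered 2 control and 2 Fe deficient rosette libraries of the EYFP line. Per the submitters' processing notes, limma 3.26.9, edgeR 3.12.1, Bowtie2 2.0.6, Trimmomatic 0.35 and bcl2fastq 1.8.4 were used and TAIR10 was the build. Their roles are not given in the sources used here. The deposited tables hold per-library values taken here as RPKM, a unit read from the values since no header names it, beside the authors' deposited p-value and log2 fold change for each comparison. Each library lists 33611 features, 33607 of them AT loci and 4 constructs. Among the values of the 20 highest genes, 24 of 80 recurred exactly in another library, and the libraries' sorted values nearly coincide, so totals (721102 to 736155) carry no depth. Read depth is unknown and no counting interval is given.

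Values were analysed as log2(RPKM + 0.5) over AT loci with a mean RPKM of at least 0.5, in R 4.3.3 with the package data.table at version 1.17.8 and limma 3.58.1, whose moderation of the variance followed the mean level. The rosette test took its spread from all 8 rosette groups (8 residual degrees of freedom), the difference between tissues from all 16 groups, with Benjamini-Hochberg adjustment over all genes tested; every adjusted p comes from these limma fits unless the deposited values of the authors are named. A library left out took its whole group out of the spread and left 1 library in that group. Those fits therefore differ from the main fit in the test as well as in the fold change. Of 26 tables, 14 were used, 7 per tissue. Root and rosette tables may have been normalized separately, so only fold changes within each were compared. The fits were run on simulated data with independent normal noise, the same spread per gene in all groups and no effect of replicate number. Those data could not test whether the pooled spread suits the real libraries. Genes were named by rule: called list members; up to 12 unlisted called genes per direction with the largest change; a set list of iron genes; and up to 8 genes per direction with the largest difference between tissues. Others are said to be named after their values were seen, apart from markers, clock genes and further list members given beside counts. Members and lists were chosen with earlier results of these data known. RefSeq (TAIR10.1) held 64 of the 67 called genes. Sequences and figures used Python 3.11.15, pandas 2.3.3, numpy 2.4.6 and matplotlib 3.10.9. Alternatives covered pseudocounts, filters, the source of the spread, centring, a replicate block, the authors' p-values and each library left out.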

Additional observations from a re-analysis of the deposited data

Results flagged for a closer look

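The iron responses of rosettes and roots of the EYFP line differed by a test of the difference itself (limma, adjusted p under 0.05) for 23 named genes, given here as the rosette log2 fold change minus the root log2 fold change. Rosettes were above roots in 6: AT2G14247 (4.25), BTS (1.60), RSH2 (1.49), CSD2 (1.45), CCS (1.28) and CDI (1.19). Rosettes were below roots in 17. Among genes that fell in rosettes the differences were -3.91 for NEET, -3.15 for FSD1, -2.50 for ENH1, -1.92 for AT3G43670, -1.74 for AT1G80360, -1.32 for SUFB, -1.29 for AT5G51010 and -1.10 for AT5G45410. Among genes that rose in roots they were -5.39 for CYP71B5, -4.71 for GSTL1, -4.61 for COPT2, -4.03 for MTP3, -3.76 for FRO2, -3.57 for IRT1, -3.24 for UGT72E1, -2.05 for NAS1 and -1.84 for FIT. With 2 libraries per group, no group was large enough for a check of single outlying libraries.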

How the results depend on the processing

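The 67 calls (35 higher, 32 lower) stayed within 1.5 times under pseudocounts of 0.1 and 1, a minimum of 2 RPKM, a filter over 16 rosette libraries and a spread without the EYFP control group (62 to 67 calls). Centring moved the median by only -0.0026, so it could not test the calls. Without a filter 59 genes were called, 38 of them shared, and lower calls dropped to 21. With limma on the 4 libraries alone 0 were called (333 at an unadjusted p under 0.05). The authors' deposited p-values, adjusted, called 88, of which 39 were shared. With one library left out, calls ran from 18 to 80 (13 to 42 higher, 5 to 38 lower). A replicate block called 86, all 67 included, and YSL3 passed (-0.80, adjusted p = 0.0327). Replicate differences correlated across genes over 0.1 in 27 of 28 pairs of the 8 rosette groups (0.145 to 0.565) and at -0.00866 in 1. The labels tie the numbers to no shared batch, and there are only 2 numbers, so they were not taken as pairing.

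The tissue difference (97 calls, 6 above and 91 below) gave 171 with the replicate block (17 and 154), 175 without a filter (24 and 151), and 51 to 88 with one library left out (1 to 12 above, 49 to 78 below). The sign of 7 genes that were not called turned with one library left out: log2 fold changes ran from -0.35 to 0.066 for FIT, -0.16 to 0.28 for NAS1, -0.11 to 0.035 for SUFC, -0.33 to 0.091 for SUFD, -0.14 to 0.16 for FSD2, -0.42 to 0.15 for FSD3 and -0.065 to 0.0029 for CSD3. The cause was not tested. IMA3 passed with a pseudocount of 1 (adjusted p = 0.0403) and without the EYFP control group in the spread (0.0372), and its p in the authors' deposited table is listed as 0. Unknown depth leaves the precision of values under 1 RPKM unknown.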
